A study of Homo sapiens with 16 samples.

Results

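The nuclear genes of the oxidative phosphorylation complexes were followed in L1236, a cell line of Hodgkin lymphoma, in which cells with the induced label and cells with the uninduced label were compared on Affymetrix whole-transcript arrays. Members were the genes whose gene-level probe set carried a single symbol of the NDUFA, NDUFB, NDUFC, NDUFS, NDUFV, SDHA, SDHC, SDHD, UQCR, UQCC, CYC1, COX4 to COX8 or ATP5 series, which gave 88 of 18395 named genes on 95 probe sets. Pseudogenes (ATP5F1EP2, UQCRBP1), the divergent transcript NDUFV1-DT and the NDUFAF assembly factors were left out, and so were genes whose probe sets carry more than 1 symbol. Complex I had 34 members, complex II 6, complex III 13, complex IV 17 and complex V 18. Of these, 8 are assembly factors taken in by their symbols (SDHAF2 to SDHAF4 and UQCC1 to UQCC5) and 80 are subunits or regulators.

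All cells had been infected with a retrovirus carrying a hairpin against RELB, a subunit of NF-kappaB. The 4 arrays labelled induced came from cells given doxycycline to switch the hairpin on, and the 4 arrays labelled uninduced from infected cells without it. Hairpin expression, doxycycline itself and anything else that differed between the cells of the 2 labels therefore cannot be told apart. Titles cross this label with a code, B_4 or B_1, and a last number, 1 or 4, whose meanings are not stated. Replicates 1 and 2 below are the B_1 arrays with last numbers 1 and 4, and replicates 3 and 4 the B_4 arrays in the same order. Nothing states that the arrays come from separate cultures, so every p-value measures the spread between arrays, which may be technical.

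Oxidative phosphorylation passes electrons from NADH through complex I, or from succinate through complex II, to ubiquinone, then through complex III and cytochrome c to oxygen at complex IV. Complexes I, III and IV pump protons across the inner mitochondrial membrane, and complex V lets them back to make ATP. Most subunits are encoded in the nucleus and built together with a few encoded in mitochondrial DNA, so the mRNA values below say nothing of assembled complexes. In bulk RNA, fewer cells of a type and less RNA per cell cannot be told apart.

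The labels were first checked on RELB itself, which had log2 signals of 7.22, 7.26, 7.39 and 7.14 in the arrays labelled induced, against 7.23, 7.38, 7.54 and 7.45 in the arrays labelled uninduced. The groups overlapped, and the difference of -0.15 ± 0.09 log2 (SE) did not pass (limma adjusted p = 0.212, two-sided exact permutation p = 0.171, with 0.0286 the smallest possible), so the hairpin's target does not bear out the label and groups are called by it only. The arrays nevertheless fell apart by label, with correlations over all genes of 0.9871 to 0.991 within induced, 0.984 to 0.9949 within uninduced and 0.7956 to 0.8262 between labels. Of 6 markers of Hodgkin and Reed-Sternberg cells, TNFRSF8, TRAF1 (2.70 log2) and IRF4 (0.75) rose, FUT4 fell (-0.47), and CD70 (0.18) and CCL17 (-0.04) did not pass, with summed linear signals of 6499.8 to 8134.0 in induced arrays and 2725.2 to 2855.0 in uninduced arrays. TNFRSF8, which encodes CD30, was 4.70 log2 higher with the induced label (limma adjusted p = 7.45e-11), at 11.59 ± 0.10 in the arrays labelled induced and 6.89 ± 0.21 in the arrays labelled uninduced (SD, n = 4 each). Of 11 measured markers of B, T and myeloid cells and fibroblasts, only PDGFRB rose (0.59 log2), and their summed linear signal was 425.9 to 477.7 in induced arrays and 412.7 to 494.1 in uninduced arrays. MS4A1, CD3E, CD2 and LYZ lay below the filter on dim genes. The part of these markers in the results on the respiratory genes was not tested.

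Members of the respiratory chain more often rose than fell with the induced label. Of the 85 members bright enough to be tested, 34 rose, 14 fell and 37 did not pass limma's test at an adjusted p of 0.05. That is 40% higher and 16.5% lower, beside 27.1% higher and 28.4% lower among all 13796 genes tested (55.5% in either direction). The median difference was 0.16 log2 over members and 0.02 over all genes, and 61 of 85 members (71.8%) had a difference above 0, against 52.6% of all genes. The sizes were ordinary for this comparison, since the median absolute difference was 0.28 log2 for members and 0.30 for all genes. Only COX8A, ATP5F1D, NDUFB10 and COX6A1 rose by at least 1 log2 unit (4.71%, against 6.90% of all genes), and only NDUFC1 fell by as much (1.18%, against 9.62%). The groups did not overlap in 32 members that lay above and 13 that lay below in induced arrays, or 37.6% and 15.3%, beside 24.2% and 25.6% of all genes (49.8% in either direction). COX6B2, COX7B2 and COX8C, tissue-specific isoforms of complex IV subunits, were below the filter and were not tested.

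**Figure D1:**
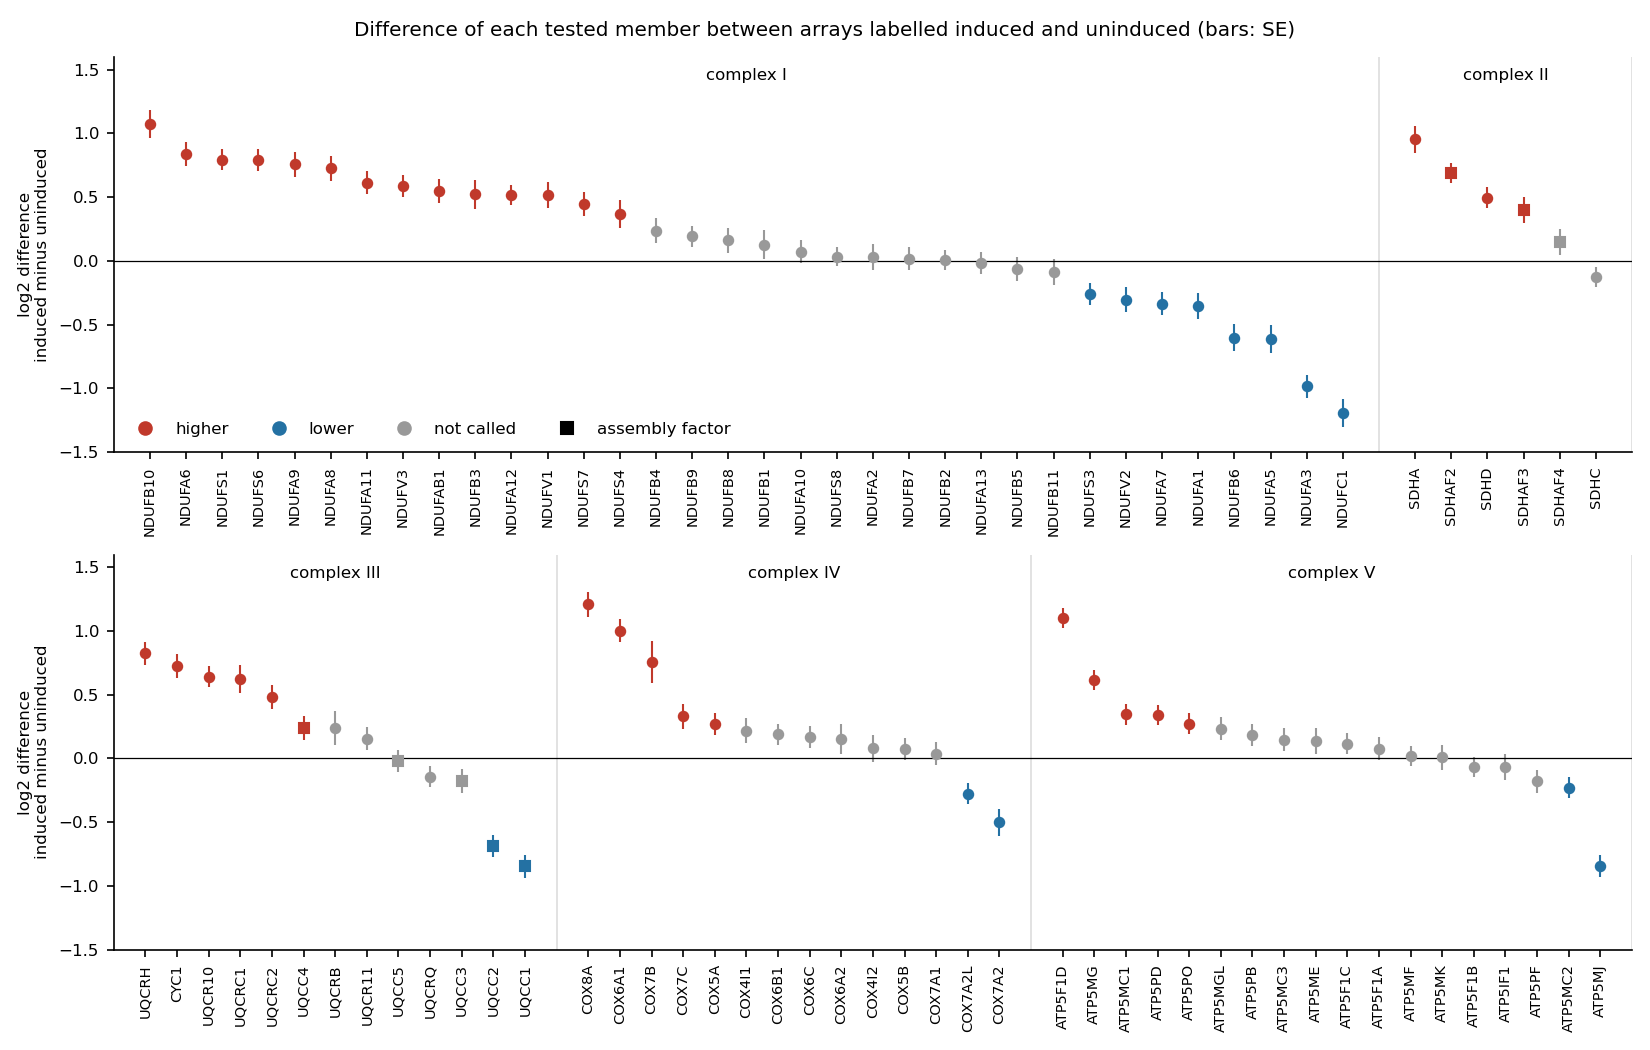
Difference in log2 signal, induced minus uninduced, for each tested member, with 1 point per gene (red higher, blue lower, grey not called, squares for assembly factors), bars of 1 SE from limma and members grouped by complex. Complex I spans the widest range, from NDUFC1 at -1.20 to NDUFB10 at 1.07, and complex II has no member that fell past the threshold.

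Nuclear respiratory genes are known for promoters with sites of NRF1, GABPA and YY1. RefSeq windows on GRCh38.p14, from 250 bases before to 50 after the start, were matched for 74 of 88 members. The NRF1 core GCGCATGC, searched on both strands like the others, was in 14 of 74 (18.9%), beside 3.27% of all 27305 windows and 4.26% of 15843 protein-coding ones. The GABPA core CCGGAAGT was in 11 (14.9%), beside 4.44% and 6.19%, and the YY1 core AAGATGGC in 11 (14.9%), beside 3.03% and 3.91%. The NRF1 core can overlap its own reverse complement, so each window was counted once per motif. By call, the NRF1 core was in 7 of 32 windows of members that rose, 2 of 14 of members that fell and 5 of 25 of those not called. The GABPA core was in 6, 0 and 5 of them, and the YY1 core in 6, 3 and 2. The median GC content was 61.2% in members' windows and 58.3% in all windows. A match describes letters only, and the differences in share were not tested.

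The windows below are those of the largest rise and the largest fall among called members holding each motif, with matches to any of the 3 motifs on either strand in capitals. COX6A1 (chr12:120437863-120438162, plus strand) and UQCC2 (chr6:33711651-33711950, minus strand) hold the NRF1 core, the first on both strands, and UQCC2 also the YY1 core. COX8A (chr11:63974370-63974669, plus strand) holds the GABPA core, which no matched window of a member that fell held. NDUFA6 (chr22:42090723-42091022, minus strand) and NDUFA3 (chr19:54102605-54102904, plus strand) hold the YY1 core, and NDUFA6 the NRF1 core too.
COX6A1: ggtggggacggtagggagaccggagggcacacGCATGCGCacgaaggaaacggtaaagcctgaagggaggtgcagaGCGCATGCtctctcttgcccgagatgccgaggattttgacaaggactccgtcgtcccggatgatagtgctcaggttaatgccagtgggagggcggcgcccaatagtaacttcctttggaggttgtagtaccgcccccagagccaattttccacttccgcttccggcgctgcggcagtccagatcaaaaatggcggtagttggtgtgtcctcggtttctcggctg
UQCC2: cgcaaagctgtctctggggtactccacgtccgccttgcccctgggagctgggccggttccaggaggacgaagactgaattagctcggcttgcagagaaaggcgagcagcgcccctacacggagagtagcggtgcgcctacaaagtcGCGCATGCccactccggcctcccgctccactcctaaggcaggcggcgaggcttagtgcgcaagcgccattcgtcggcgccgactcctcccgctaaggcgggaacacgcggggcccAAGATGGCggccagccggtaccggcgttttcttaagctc
COX8A: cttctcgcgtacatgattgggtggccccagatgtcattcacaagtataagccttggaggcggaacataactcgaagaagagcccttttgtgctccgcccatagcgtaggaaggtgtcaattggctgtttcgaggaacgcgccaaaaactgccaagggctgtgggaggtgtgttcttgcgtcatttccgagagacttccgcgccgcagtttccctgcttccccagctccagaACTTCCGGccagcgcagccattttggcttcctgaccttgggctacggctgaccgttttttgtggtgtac
NDUFA6: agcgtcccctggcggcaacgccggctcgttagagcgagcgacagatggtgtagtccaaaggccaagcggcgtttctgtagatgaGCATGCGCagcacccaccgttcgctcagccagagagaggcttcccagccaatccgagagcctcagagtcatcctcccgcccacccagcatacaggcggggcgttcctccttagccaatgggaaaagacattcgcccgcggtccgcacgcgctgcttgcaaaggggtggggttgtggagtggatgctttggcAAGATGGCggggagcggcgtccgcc
NDUFA3: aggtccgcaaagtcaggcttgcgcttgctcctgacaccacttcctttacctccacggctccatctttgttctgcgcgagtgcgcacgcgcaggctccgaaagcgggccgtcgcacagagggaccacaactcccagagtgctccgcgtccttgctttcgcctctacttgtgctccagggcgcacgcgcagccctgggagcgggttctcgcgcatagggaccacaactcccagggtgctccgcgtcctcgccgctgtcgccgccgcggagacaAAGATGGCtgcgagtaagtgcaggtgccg
UQCC2 and NDUFA6 both hold the NRF1 and YY1 cores. UQCC2 was picked as a fall (-0.69 log2) and NDUFA6 as a rise (0.84), so their opposite signs come from the choice.

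By complex, the counts ran from mostly higher in complex II to mostly not called in complex V. Complex I had 14 members higher, 8 lower and 12 not called, with a median difference of 0.15 log2. Complex II had 4 higher, 0 lower and 2 not called (median 0.45), and complex III had 6 higher, 2 lower and 5 not called (median 0.24). Complex IV had 5 higher, 2 lower and 7 not called (median 0.18), and complex V had 5 higher, 2 lower and 11 not called (median 0.13). Over all genes tested 27.1% were higher and 28.4% lower. Complex V, at 27.8% higher, and complex I, at 23.5% lower, lay near those shares. In complex II the count takes in assembly factors, and 2 of its 3 subunits were higher. The counts within each complex below are to be read beside the same shares of all genes. The differences between complexes were not tested.

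Within complex I the peripheral arm holds the N module, which oxidises NADH, and the Q module, which reduces ubiquinone. The N module had 6 members higher, 2 lower and 1 not called, with a median of 0.52 log2. NDUFS1, the largest iron-sulfur subunit, had 10.74, 10.43, 10.65 and 10.55 in the arrays labelled induced, against 9.87, 9.79, 9.82 and 9.71 in the arrays labelled uninduced. The groups were wide apart, with a difference of 0.79 ± 0.08 log2 (SE, limma adjusted p = 1.05e-05), or 1.73-fold on the linear scale, and 18 of its 20 exon-level probe sets were called higher. NDUFV1, which binds NADH and flavin mononucleotide, had 10.52, 10.24, 10.54 and 10.65 in the arrays labelled induced, against 9.97, 10.07, 9.92 and 9.93 in the arrays labelled uninduced. All induced arrays lay above all uninduced ones, and the difference was 0.52 ± 0.10 log2 (limma adjusted p = 0.00126). NDUFV2, the iron-sulfur partner of NDUFV1, went the other way, with 8.92, 8.54, 8.58 and 8.66 in the arrays labelled induced, against 8.89, 8.97, 9.10 and 8.95 in the arrays labelled uninduced. Induced replicate 1 lay inside the uninduced range, so the groups overlapped, and the difference was -0.30 ± 0.10 log2 (limma adjusted p = 0.0251). This call was lost when any of 5 arrays was left out (induced replicates 2 and 3, uninduced replicates 2, 3 and 4), with adjusted p of 0.0668 to 0.0953, and when its exon-level probe sets were averaged (-0.23, adjusted p = 0.0699). The other members that rose here were NDUFS6 (0.79), NDUFV3 (0.59), NDUFA12 (0.52) and NDUFS4 (0.37), while NDUFA7 fell (-0.34) and NDUFA2 did not pass (0.03). The NDUFS4 call was lost without induced replicate 1 or uninduced replicate 1 (adjusted p 0.0566 and 0.0618), and with the mean of its gene-level probe sets (0.21, adjusted p = 0.0686).

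The Q module was divided, with 2 members higher, 2 lower and 1 not called. NDUFS7, an iron-sulfur subunit near the quinone site, had 7.93, 7.69, 7.85 and 7.90 in the arrays labelled induced, against 7.30, 7.53, 7.40 and 7.35 in the arrays labelled uninduced. It was higher in every induced array, by 0.44 ± 0.09 log2 (limma adjusted p = 0.00192). NDUFS3, a core subunit of the same module, had 10.14, 9.83, 10.01 and 10.00 in the arrays labelled induced, against 10.23, 10.20, 10.31 and 10.27 in the arrays labelled uninduced. It was lower in every induced array, with a difference of -0.26 ± 0.09 log2 (SE, limma adjusted p = 0.0234), a call lost without any 1 of induced replicates 2 and 3 and uninduced replicates 2, 3 and 4 (adjusted p 0.0596 to 0.0788), and when its 8 exon-level probe sets, of which 0 passed, were averaged (-0.20, adjusted p = 0.0917). NDUFS8, a further iron-sulfur subunit, had 7.88, 7.87, 7.88 and 7.95 in the arrays labelled induced, against 7.85, 7.83, 7.83 and 7.93 in the arrays labelled uninduced. Its groups overlapped and the difference of 0.03 ± 0.08 log2 did not pass (limma adjusted p = 0.746). The accessory subunits NDUFA9 and NDUFA5 differed in sign, at 0.76 and -0.61 log2.

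In the membrane arm, which pumps protons, the proximal part had 2 members higher, 3 lower and 2 not called, and the distal part 2 higher, 1 lower and 8 not called. The largest fall of any member was that of NDUFC1, an accessory subunit of the proximal arm, with 8.10, 7.60, 8.26 and 8.26 in the arrays labelled induced, against 9.0, 9.18, 9.43 and 9.40 in the arrays labelled uninduced. All induced arrays were below all uninduced ones, replicate 2 lowest, and the difference was -1.20 ± 0.11 log2 (limma adjusted p = 4.04e-06), 2.29-fold lower with the induced label, with 7 of 7 exon-level probe sets lower. NDUFA3, another accessory subunit there, had 8.98, 8.70, 8.95 and 8.97 in the arrays labelled induced, against 9.93, 9.89, 9.80 and 9.91 in the arrays labelled uninduced. The groups stood apart, with a difference of -0.98 ± 0.09 log2 (limma adjusted p = 4.61e-06), and 4 of 4 exon-level probe sets were lower. NDUFA1 fell as well (-0.35 log2), but not without uninduced replicate 3 (adjusted p 0.0581), whereas NDUFA8 and NDUFA11 rose (0.72 and 0.61). NDUFB10, an accessory subunit of the distal arm, had 8.75, 8.45, 9.04 and 8.49 in the arrays labelled induced, against 7.50, 7.66, 7.76 and 7.52 in the arrays labelled uninduced. Every induced array lay above every uninduced one, with a fitted difference of 1.07 ± 0.11 log2 (limma adjusted p = 1.03e-05). Between arrays of the same replicate number, 1 to 4, which are not taken as pairs, the differences were 1.25, 0.79, 1.28 and 0.97 log2. NDUFB3 rose (0.52) and NDUFB6 fell (-0.60). The 8 distal members that did not pass lay between -0.09 and 0.24 log2, and of these NDUFB4 (0.29, adjusted p = 0.0383) and NDUFB9 (0.23, adjusted p = 0.0461) passed without induced replicate 2. NDUFA6, which belongs to the LYR family and holds the acyl carrier protein NDUFAB1 on the complex, had 9.79, 9.57, 9.66 and 9.56 in the arrays labelled induced, against 8.68, 8.70, 8.94 and 8.90 in the arrays labelled uninduced. Both proteins' genes rose, NDUFA6 by 0.84 ± 0.09 (limma adjusted p = 1.7e-05) and NDUFAB1 by 0.55 log2.

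**Figure D2:**
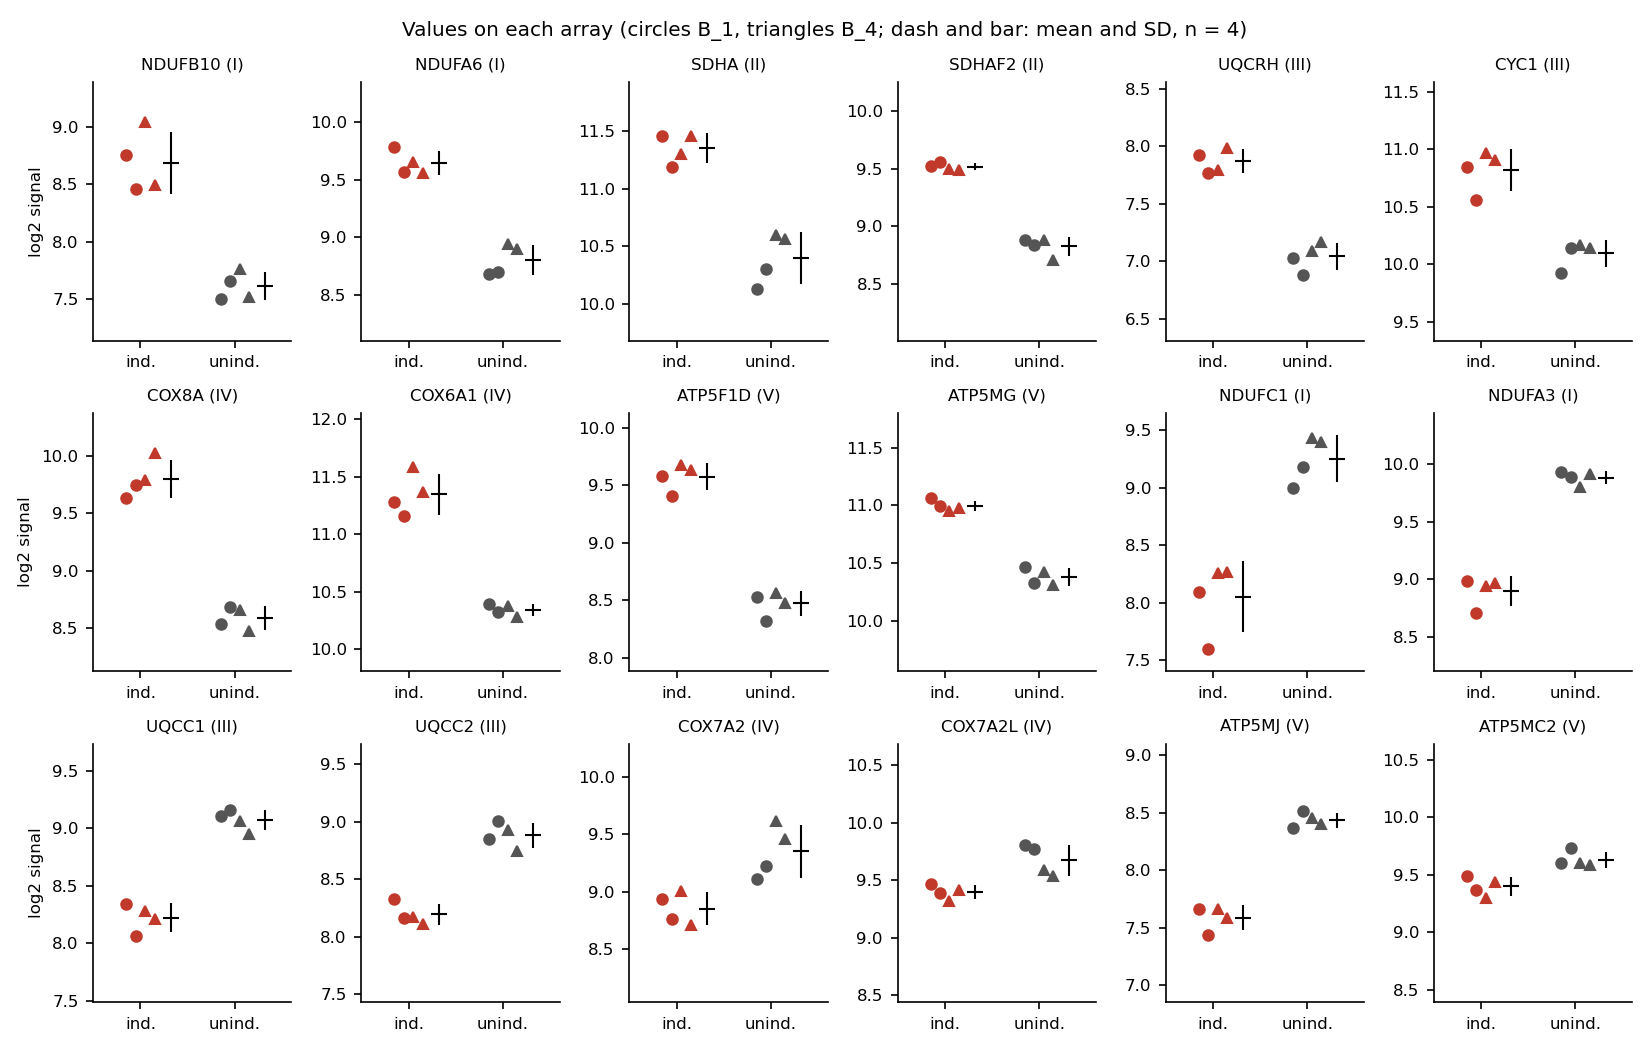
Log2 signal of the members with the largest rise or fall in each complex, 1 point per array (circles B_1, triangles B_4), with arrays labelled induced left of arrays labelled uninduced and a dash and bar for the mean and SD of 4 arrays. The 4 induced arrays of COX8A lie between 9.64 and 10.03, all above its uninduced arrays, while those of NDUFC1 lie between 7.60 and 8.26, all below.

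Complex II, succinate dehydrogenase, is also an enzyme of the tricarboxylic acid cycle. SDHA, its flavoprotein that oxidises succinate, had 11.45, 11.19, 11.30 and 11.46 in the arrays labelled induced, against 10.13, 10.30, 10.59 and 10.56 in the arrays labelled uninduced. The induced arrays stood above the uninduced ones, 0.95 ± 0.10 log2 higher (SE, limma adjusted p = 1.71e-05) or 1.94-fold, and 12 of 13 exon-level probe sets were higher. SDHD, a membrane anchor that binds ubiquinone, had 10.38, 10.23, 10.26 and 10.25 in the arrays labelled induced, against 9.74, 9.72, 9.89 and 9.79 in the arrays labelled uninduced. It too was higher in every induced array, by 0.49 ± 0.08 log2 (limma adjusted p = 0.00038), but averaged over its exon-level probe sets it did not pass (0.36, adjusted p = 0.0833). The array values are those of its brighter gene-level probe set. Its second, dimmer one had means of 8.37 in induced and 7.94 in uninduced arrays, a difference of 0.42 log2 (limma adjusted p = 0.00331). SDHC, the other anchor, had 9.53, 9.39, 9.63 and 9.64 in the arrays labelled induced, against 9.61, 9.63, 9.81 and 9.65 in the arrays labelled uninduced. Its groups overlapped and -0.13 ± 0.08 log2 did not pass (limma adjusted p = 0.212), although averaged over its exon-level probe sets it did (-0.28, adjusted p = 0.0425). The array values of SDHC are also those of its brighter gene-level probe set. The dimmer one had means of 7.18 in induced and 7.12 in uninduced arrays. Its difference of 0.06 log2 had the other sign and did not pass either (limma adjusted p = 0.637). The differences of the brighter probe sets of SDHD and SDHC, 0.49 and -0.13 log2, are each that of a single exon-level probe set. Which gene-level probe set lies at the gene itself was not checked for SDHC or SDHD, so the array values may be those of a copy elsewhere.

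The assembly factor SDHAF2, which helps attach flavin to SDHA, had 9.52, 9.56, 9.50 and 9.49 in the arrays labelled induced, against 8.88, 8.84, 8.88 and 8.71 in the arrays labelled uninduced. Every induced array lay above every uninduced array, with a difference of 0.69 ± 0.08 log2 (limma adjusted p = 2.42e-05). SDHAF3, which takes part in maturation of the iron-sulfur subunit, rose by 0.40 ± 0.10 log2 (limma adjusted p = 0.00607), with induced replicate 2 inside the uninduced range. SDHAF4, which binds flavinated SDHA, had 5.31, 4.90, 4.87 and 4.77 in the arrays labelled induced, against 4.88, 5.01, 4.62 and 4.75 in the arrays labelled uninduced. This gene lay close to the filter on dim genes, its groups overlapped, and its difference of 0.15 ± 0.10 did not pass (limma adjusted p = 0.244).

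In complex III, which passes electrons from ubiquinol to cytochrome c, the subunits and the assembly factors gave different counts. Among 8 subunits 5 rose, 0 fell and 3 did not pass, with a median of 0.55 log2, while among 5 UQCC assembly factors 1 rose, 2 fell and 2 did not pass, with a median of -0.18. The difference between these 2 sets was not tested. UQCRH, the acidic hinge subunit at the cytochrome c1 side, had 7.92, 7.77, 7.79 and 7.99 in the arrays labelled induced, against 7.02, 6.88, 7.09 and 7.17 in the arrays labelled uninduced. The groups were separate, with a difference of 0.83 ± 0.09 log2 (limma adjusted p = 1.71e-05). CYC1, cytochrome c1 itself, had 10.84, 10.56, 10.97 and 10.90 in the arrays labelled induced, against 9.92, 10.14, 10.17 and 10.14 in the arrays labelled uninduced. It was 0.72 ± 0.10 log2 higher (limma adjusted p = 6.76e-05), with 7 of 8 exon-level probe sets higher. UQCRC1, a core protein that faces the matrix, had 9.76, 9.42, 9.65 and 9.65 in the arrays labelled induced, against 8.72, 8.98, 9.19 and 9.09 in the arrays labelled uninduced. Its partner UQCRC2 had 11.60, 11.16, 11.48 and 11.46 in the arrays labelled induced, against 11, 10.98, 10.96 and 10.83 in the arrays labelled uninduced. In both genes induced replicate 2 was the lowest array of its group and still above every uninduced array, and the differences were 0.62 ± 0.11 log2 for UQCRC1 and 0.48 ± 0.10 for UQCRC2 (SE, limma adjusted p = 0.000483 and 0.00138). UQCR10 rose by 0.64. UQCR11 (0.16), UQCRB (0.24) and UQCRQ (-0.14) did not pass, although UQCRB did without replicate 3 of the induced arrays (0.39, adjusted p = 0.0121) or of the uninduced arrays (0.39, adjusted p = 0.0164), and UQCR11 without induced replicate 4 (0.23, adjusted p = 0.0459).

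UQCC1 and UQCC2, which act together in the synthesis and assembly of cytochrome b, fell. UQCC1 had 8.34, 8.06, 8.28 and 8.21 in the arrays labelled induced, against 9.10, 9.16, 9.06 and 8.95 in the arrays labelled uninduced. UQCC2 had 8.33, 8.17, 8.17 and 8.12 in the arrays labelled induced, against 8.86, 9.01, 8.93 and 8.75 in the arrays labelled uninduced. Neither pair of groups overlapped, and the differences were -0.85 ± 0.09 and -0.69 ± 0.09 log2 (SE, limma adjusted p = 1.18e-05 and 4.65e-05), with 9 of 12 exon-level probe sets of UQCC1 and 3 of 4 of UQCC2 lower. The fall was not uniform along UQCC1, whose exon-level differences ran from -2.30 to 0.37 log2, with a median of -0.87. UQCC4 rose by only 0.24 ± 0.09 log2 (limma adjusted p = 0.0476) with overlapping groups. The UQCC4 call was lost without each array but induced replicate 4 (adjusted p 0.055 to 0.175), and without induced replicate 2 the difference was 0.16. It was also lost under 7 of the 10 other settings, the replicate block as a fixed (0.0706) or a random effect (0.052) among them.

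Complex IV, cytochrome c oxidase, has nuclear subunits that often come as paired isoforms, a common one and one restricted to certain tissues. Of the 10 common subunits 5 rose, 1 fell and 4 did not pass (median 0.24 log2), and of the 3 tissue isoforms tested none passed. COX8A, a common subunit, had 9.64, 9.74, 9.79 and 10.03 in the arrays labelled induced, against 8.54, 8.69, 8.66 and 8.47 in the arrays labelled uninduced. It had the largest rise of any member, 1.21 ± 0.10 log2 or 2.31-fold (limma adjusted p = 1.7e-06), with every induced array above every uninduced one. Its testis isoform COX8C was below the filter. COX6A1, the common form of subunit 6A, had 11.28, 11.16, 11.58 and 11.37 in the arrays labelled induced, against 10.40, 10.32, 10.38 and 10.28 in the arrays labelled uninduced. It rose by 1.0 ± 0.09 log2 (limma adjusted p = 3.31e-06), and its second probe set by 0.94. Whether both of these probe sets lie at the gene itself was not checked. COX6A2, the form of heart and skeletal muscle, had 6.33, 6.83, 6.58 and 6.59 in the arrays labelled induced, against 6.45, 6.24, 6.34 and 6.69 in the arrays labelled uninduced, and its overlapping groups differed by 0.15 ± 0.12 log2 (limma adjusted p = 0.312).

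COX7A2, the common form of subunit 7A, had 8.94, 8.76, 9.01 and 8.71 in the arrays labelled induced, against 9.11, 9.22, 9.62 and 9.46 in the arrays labelled uninduced. Here all induced arrays were lower, with a difference of -0.50 ± 0.11 log2 (SE, limma adjusted p = 0.00197). COX7A2L, a related protein that joins complexes III and IV in supercomplexes, had 9.47, 9.39, 9.31 and 9.41 in the arrays labelled induced, against 9.80, 9.77, 9.59 and 9.53 in the arrays labelled uninduced. It was lower in every induced array, with a difference of -0.28 ± 0.08 log2 (limma adjusted p = 0.0142), a call not kept when its exon-level probe sets were averaged (-0.20, adjusted p = 0.0675). COX7A1, the muscle form, had 4.92, 5.11, 5.36 and 5.13 in the arrays labelled induced, against 5.0, 5.0, 5.13 and 5.24 in the arrays labelled uninduced, with overlapping groups and a difference of 0.04 ± 0.09 log2 (limma adjusted p = 0.759). COX7B, another common subunit, had 8.65, 8.45, 9.21 and 8.27 in the arrays labelled induced, against 7.92, 8.14, 7.86 and 7.64 in the arrays labelled uninduced. It rose by 0.76 ± 0.17 log2 (limma adjusted p = 0.00268) without overlap, and its testis paralog COX7B2 was not tested.

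The other common subunits gave smaller values. COX4I1, which carries a regulatory site for ATP, had 8.61, 8.19, 8.48 and 8.44 in the arrays labelled induced, against 8.09, 8.27, 8.26 and 8.23 in the arrays labelled uninduced. Induced replicate 2 lay inside the uninduced range and the difference of 0.22 ± 0.10 log2 did not pass (limma adjusted p = 0.0917); without that array it did (0.30, adjusted p = 0.0264). Its isoform COX4I2, known for its expression in lung and under low oxygen, had 5.17, 5.66, 5.44 and 5.76 in the arrays labelled induced, against 5.40, 5.25, 5.39 and 5.66 in the arrays labelled uninduced, and its difference of 0.08 ± 0.11 did not pass (limma adjusted p = 0.56). COX6B1 had 9.22, 9.19, 9.40 and 9.28 in the arrays labelled induced, against 9.13, 9.07, 9.20 and 8.93 in the arrays labelled uninduced, which overlapped, with a difference of 0.19 ± 0.08 that did not pass (limma adjusted p = 0.0829). COX5A (0.27) and COX7C (0.33) rose, and COX5B (0.08) and COX6C (0.17) did not pass. The COX5A call was lost without induced replicate 1, uninduced replicate 1 or uninduced replicate 4 (adjusted p 0.06 to 0.0729) or after quantile normalisation (0.21, adjusted p = 0.0507), and that of COX7C without uninduced replicate 1 (0.0542). COXFA4 and COXFA4L2, earlier named as NDUFA4 genes and not counted as members, differed by 0.07 and -0.12 log2 and did not pass.

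Complex V, the ATP synthase, had the largest share of members not called, 61.1%, beside 43.5% over all members. Its F1 head, built of alpha and beta subunits around a central stalk, makes the ATP. ATP5F1A, the alpha subunit, had 11.68, 11.38, 11.59 and 11.51 in the arrays labelled induced, against 11.36, 11.41, 11.60 and 11.48 in the arrays labelled uninduced. ATP5F1B, the catalytic beta subunit, had 12.97, 12.83, 12.97 and 13.01 in the arrays labelled induced, against 12.98, 12.95, 13.11 and 13.00 in the arrays labelled uninduced. Both pairs of groups overlapped, and the differences of 0.08 ± 0.09 and -0.06 ± 0.08 log2 did not pass (limma adjusted p = 0.495 and 0.531). ATP5F1D, the delta subunit of the rotating central stalk, had 9.58, 9.40, 9.68 and 9.63 in the arrays labelled induced, against 8.53, 8.32, 8.57 and 8.47 in the arrays labelled uninduced. It stood apart in every array, 1.10 ± 0.08 log2 higher (limma adjusted p = 5.77e-07) or 2.14-fold, with 6 of 8 exon-level probe sets higher. ATP5F1C, the gamma subunit of the same stalk, differed by 0.12 and did not pass.

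Of the membrane subunits, ATP5MG, subunit g of the dimer interface, had 11.06, 10.99, 10.96 and 10.98 in the arrays labelled induced, against 10.46, 10.32, 10.42 and 10.31 in the arrays labelled uninduced. The rise was 0.62 ± 0.08 log2 (limma adjusted p = 4.97e-05) with no overlap. ATP5MJ, a small proteolipid of the synthase, had 7.67, 7.44, 7.66 and 7.58 in the arrays labelled induced, against 8.37, 8.51, 8.45 and 8.41 in the arrays labelled uninduced. All induced arrays were lower, with a difference of -0.85 ± 0.09 log2 (limma adjusted p = 1.03e-05). The other 4 membrane subunits did not pass, ATP5MGL among them (0.23 ± 0.09, limma adjusted p = 0.0503), which did pass without induced replicate 4 (0.30, adjusted p = 0.0201). In the peripheral stalk, which holds the head still, ATP5PD (0.34) and ATP5PO (0.27) rose and ATP5PB (0.19) and ATP5PF (-0.18) did not pass. The ATP5PO call was lost without uninduced replicate 3 or 4 (adjusted p 0.0638 and 0.0588) or after quantile normalisation (0.18, adjusted p = 0.0676), and the mean of the exon-level probe sets of ATP5PD did not pass (0.15, adjusted p = 0.163).

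ATP5MC1, ATP5MC2 and ATP5MC3 encode the same mature c subunit of the rotor ring with different import signals, and among them 1 rose, 1 fell and 1 did not pass. ATP5MC1 had 8.67, 8.44, 8.84 and 8.56 in the arrays labelled induced, against 8.20, 8.16, 8.39 and 8.38 in the arrays labelled uninduced. ATP5MC2 had 9.49, 9.37, 9.30 and 9.44 in the arrays labelled induced, against 9.60, 9.74, 9.60 and 9.58 in the arrays labelled uninduced. In both, the groups did not overlap, with a difference of 0.35 ± 0.08 log2 for ATP5MC1 and -0.23 ± 0.08 log2 for ATP5MC2 (limma adjusted p = 0.00481 and 0.0359). The ATP5MC2 call was lost without any 1 of 6 arrays, all but induced replicates 1 and 4 (adjusted p 0.0515 to 0.110), with each array centred on its median (0.0508), with the replicate as a fixed block (0.0602) and when its exon-level probe sets were averaged (-0.13 log2, adjusted p = 0.223). ATP5MC3 had 5.91, 5.79, 6.11 and 6.0 in the arrays labelled induced, against 5.59, 5.88, 5.89 and 5.86 in the arrays labelled uninduced, with overlapping groups and 0.15 ± 0.09 log2, which did not pass (limma adjusted p = 0.202). ATP5IF1, the inhibitor that keeps the synthase from running backwards, had 7.45, 7.72, 7.70 and 7.46 in the arrays labelled induced, against 7.53, 7.53, 7.73 and 7.81 in the arrays labelled uninduced. Its groups overlapped and -0.07 ± 0.10 did not pass (limma adjusted p = 0.627). Its 9 exon-level probe sets did not agree, with 1 called higher (1.55 log2) and 2 called lower (-0.57 and -0.70).

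The arrays of 1 label did not agree equally well over these genes. The median deviation of the 77 tested subunits and regulators from their own mean over the arrays was 0.14, -0.01, 0.18 and 0.10 in the arrays labelled induced, against -0.16, -0.12, -0.02 and -0.12 in the arrays labelled uninduced. Induced replicate 2 stood lowest in its group, and was the lowest induced array in 56 of 85 members. Uninduced replicate 3 stood highest in its group, and was the highest uninduced array in 42 of 85 members. Over all genes tested the same medians were -0.03, 0.01, 0.02 and 0.02 in the arrays labelled induced, against -0.02, -0.02, 0.00 and 0.02 in the arrays labelled uninduced, but RMA equalises the arrays over all genes, so these are near 0 by construction. Without induced replicate 2, 36 members were higher and 11 lower.

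By complex, the median deviation for the 3 subunits of complex II was 0.35, 0.20, 0.22 and 0.22 in the arrays labelled induced, against -0.29, -0.31, -0.14 and -0.24 in the arrays labelled uninduced. For the 8 subunits of complex III it was 0.36, 0.08, 0.32 and 0.31 in the arrays labelled induced, against -0.30, -0.28, -0.12 and -0.26 in the arrays labelled uninduced. In these 2 complexes every induced array was above every uninduced one. In complex IV it was 0.13, 0.01, 0.14 and 0.10 in the arrays labelled induced, against -0.14, -0.12, -0.05 and -0.11 in the arrays labelled uninduced, also without overlap. Complex I had 0.14, -0.06, 0.14 and 0.11 in the arrays labelled induced, against -0.14, -0.07, -0.04 and -0.14 in the arrays labelled uninduced, with induced replicate 2 inside the uninduced range. Complex V had 0.11, -0.09, 0.18 and 0.02 in the arrays labelled induced, against -0.15, -0.09, 0.07 and -0.02 in the arrays labelled uninduced, and here uninduced replicate 3 was above induced replicates 2 and 4. The median SD within a label was 0.138 log2 over members in induced arrays and 0.108 in uninduced arrays.

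**Figure D3:**
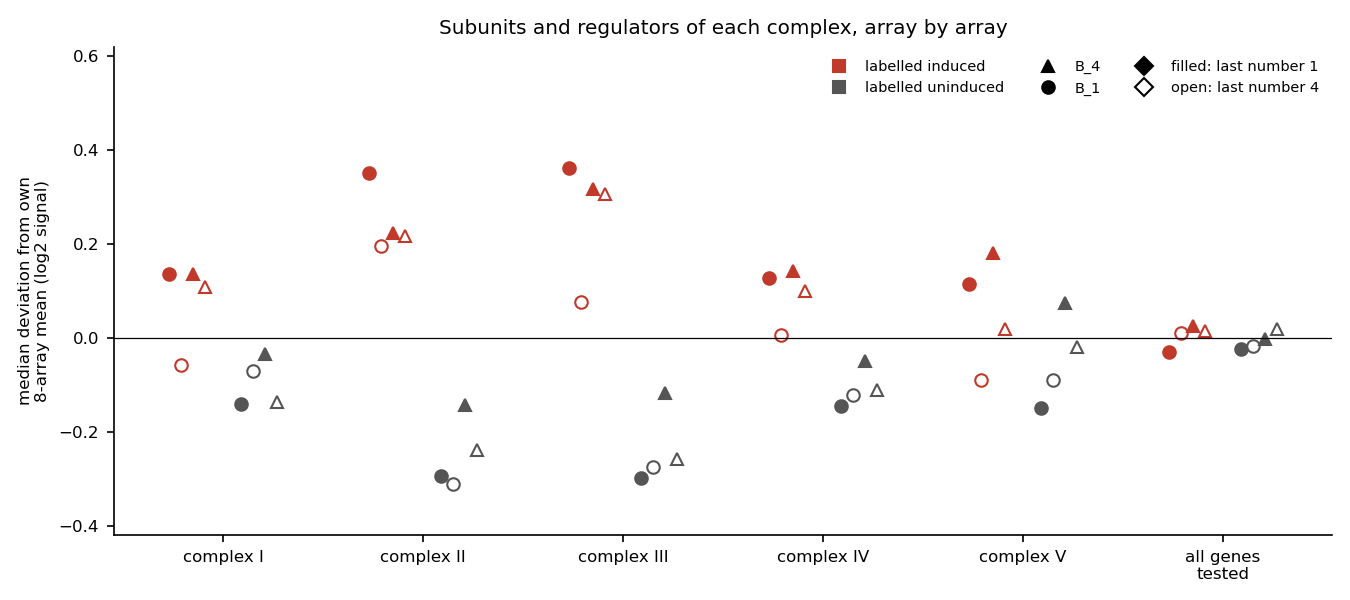
Median deviation in log2 of each complex's subunits from their own mean over the 8 arrays, 1 point per array, arrays labelled induced left of arrays labelled uninduced, assembly factors left out. The groups are separate in complexes II, III and IV and overlap in complexes I and V.

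Between the B codes no member passed. The count was 0 of 85 (background 0.00%), with 10 of 85 at an unadjusted p under 0.05 (11.8%, beside 13.9% of all genes), and the smallest adjusted p was 0.239. The differences leaned towards B_4, being above 0 in 63 of 85 members (74.1%) against 52.9% of all genes, with a median of 0.08 log2 against 0.01. The largest was that of NDUFC1, with means of 8.84 in the B_4 arrays and 8.47 in the B_1 arrays (n = 4 each), a difference of 0.37 ± 0.11 log2 (SE, limma adjusted p = 0.245). It was 0.41 among induced arrays and 0.33 among uninduced arrays, alike in direction. In complex II, SDHAF4 had 4.75 in the B_4 arrays and 5.02 in the B_1 arrays, -0.27 ± 0.10 log2 (limma adjusted p = 0.301), so B_4 was the lower code. In complex III, UQCRQ had 8.88 in the B_4 arrays and 8.66 in the B_1 arrays, 0.23 ± 0.08 log2 (limma adjusted p = 0.300). The largest in complex IV was COX7A1 and in complex V ATP5MK, with 0.21 ± 0.09 and 0.25 ± 0.10 log2 (limma adjusted p = 0.349 and 0.308).

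The induction difference was also set side by side in the 2 codes. Its median over members was 0.14 log2 in B_4 arrays and 0.19 in B_1 arrays. In a fit with the interaction of label and code, 0 of 85 members passed (background 0.297%, 41 genes), and 0 of 85 had an unadjusted p under 0.05, beside 11.9% of all genes. The smallest unadjusted p was 0.067, that of COX7A2. The residual degrees of freedom of this fit were 3.

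**Figure D4:**
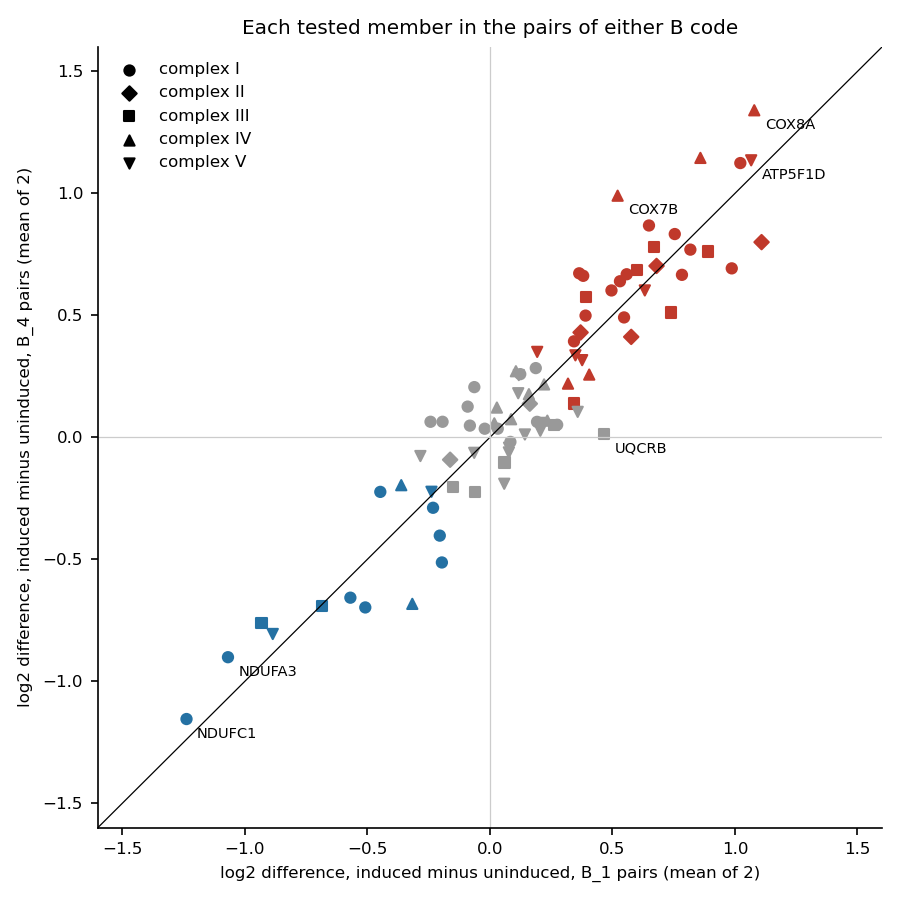
Induction difference in log2 of each tested member in the B_4 arrays against that in the B_1 arrays, 1 point per gene, shapes for complexes, with members called higher in red, lower in blue and not called in grey. Points near the diagonal have like differences in both codes, and 0 of 85 members passed the interaction test.

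The exon-level values summarise the same hybridisations once more and add no replicates. Of 542 tested in 86 members, 157 were higher and 45 lower, beside 17.9% higher and 17.5% lower of all exon-level probe sets. Without uninduced replicate 2 the count of lower ones was 29. Each of the 34 members called higher had 1 or more exon-level probe sets called higher and 0 of them had any called lower. In COX7B this was the same number again, since its only exon-level probe set had the gene-level difference of 0.76 log2. In SDHD 1 of those called higher likewise repeated the gene-level 0.49. Among the 14 members called lower, 11 had 1 or more called lower and 1, ATP5MC2, also had 1 called higher (0.67 log2, adjusted p = 0.0316). Among 35 members not called at gene level, 7 had 1 or more called higher and 3 had 1 or more called lower. Of the 7 members with several gene-level probe sets, 6 had a second one that was fitted, and that of NDUFS4 lay below the filter. The second one of NDUFB4 held the same values as the first on every array, so it was no check. Its exon-level probe sets likewise stand in the 542 in duplicate, with the same differences. The second probe set of NDUFV2 gave -0.29 beside -0.30 log2, and that of SDHC 0.06 beside -0.13, and neither SDHC value passed. For NDUFV2 too, the difference used is that of a single exon-level probe set, and which probe set lies at the gene itself was not checked.

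Other mitochondrial gene lists gave the setting for these counts, to be read beside the 27.1% higher and 28.4% lower of all genes tested. Of 16 tested regulators of nuclear respiratory genes 12 rose and 2 fell, with a median of 0.43 log2. Among them TFB1M and MTERF1, factors of mitochondrial transcription and translation, rose by 1.44 and 1.9. MTERF1 passed the filter on dim genes through the induced arrays, with a mean of 5.80 there and 3.90, under the filter value of 4.775, in the uninduced arrays, so the size of its difference is uncertain. In the same list, GABPB2, a partner of GABPA, and YY1 fell (-1.30 and -0.24), GABPB2 to a mean of 4.79 in induced arrays, against 6.09 in uninduced arrays. Of 23 tested genes of pyruvate entry and the tricarboxylic acid cycle 13 rose and 5 fell (median 0.28). PDP1, the phosphatase that activates pyruvate dehydrogenase, rose by 2.54 log2 and DLST by 1.17, whereas PDK2, a kinase that inactivates pyruvate dehydrogenase, differed by -2.01. IDH2, the NADP-dependent isocitrate dehydrogenase of mitochondria, had 6.0, 5.49, 5.89 and 5.22 in the arrays labelled induced, against 9.75, 9.87, 9.71 and 9.65 in the arrays labelled uninduced. No array overlapped, and it was 17.1-fold lower with the induced label (limma adjusted p = 7.13e-10).

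Of 38 tested assembly factors of the complexes, beyond those counted as members, 18 rose and 12 fell, with a median of 0.08 log2. The complex I factors NDUFAF1 and NDUFAF4 rose (1.09 and 1.17), and the complex IV factors COA8 and COX11 fell (-1.54 and -1.34). Of 17 genes of electron carriers and quinone supply 6 rose and 3 fell (median 0.21). COQ6 and COQ5 of ubiquinone synthesis rose (1.72 and 0.74), and ETFB, part of the electron transfer flavoprotein, and COQ8A fell (-0.73 and -0.35). Of 22 genes of import and the inner membrane 7 rose and 3 fell (median 0.13), with OPA1 and OXA1L higher (1.04 and 0.81) and TOMM70 and TIMM17B lower (-1.02 and -0.38). The share higher among import genes, 31.8%, and the share lower among assembly factors, 31.6%, lay near those of all genes (27.1% and 28.4%).

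**Figure D5:**
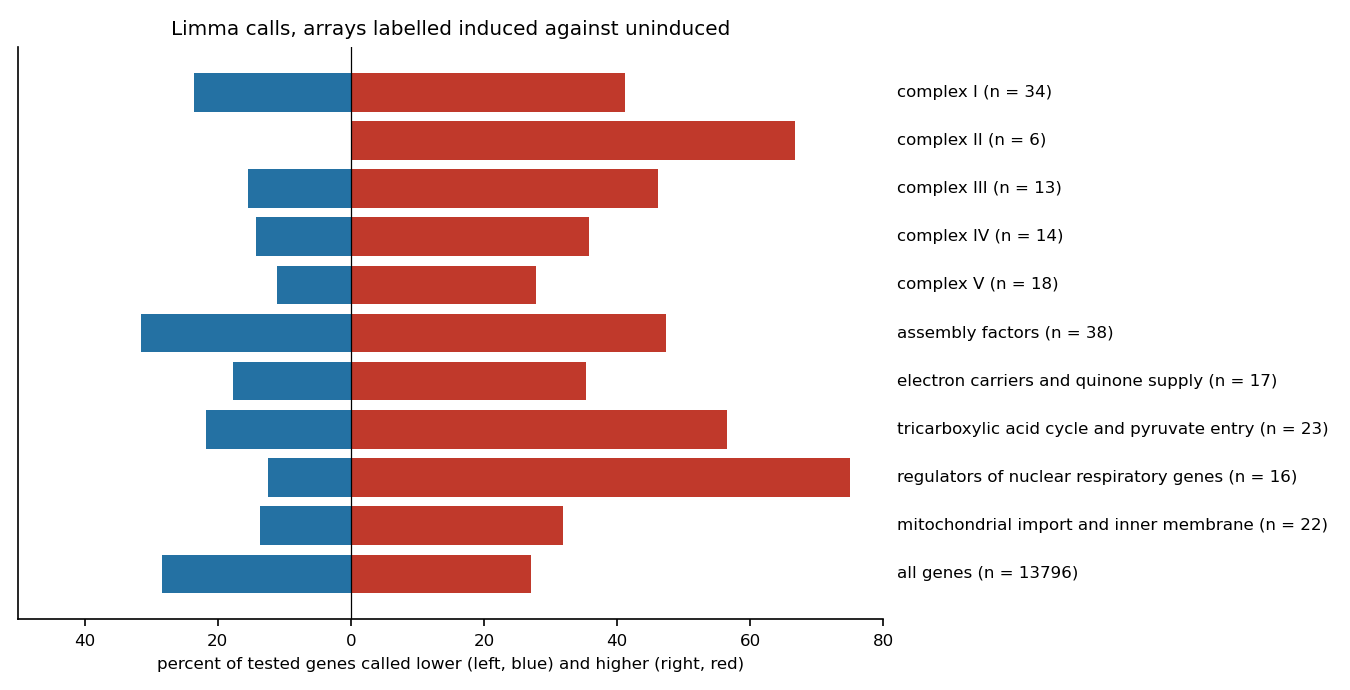
Percent of tested genes called higher (to the right) and lower (to the left) with the induced label, for each complex, each mitochondrial list and all genes tested. Complex II has 66.7% higher and 0% lower, the regulators 75% higher and 12.5% lower, and all genes 27.1% higher and 28.4% lower.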

How the data were processed

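The 16 samples are 8 arrays, each summarised once by gene and once by exon (4428 of 4428 shared features identical at tolerance 0). The deposited values are log2 signals made by the authors with RMA and Partek, per the submitters' processing notes, which give no versions. No source states the base, which was read as 2 as RMA writes it. RMA equalises arrays, so a shift of all genes would be removed, and dim differences are compressed. No build or scan batch is named there. Genes were named by GEO's platform annotation and RefSeq symbols, keeping the brightest probe set of each and genes with a mean log2 signal of 4.775 or more (25th percentile). Whether the brightest probe set lies at the gene itself or at a copy elsewhere was not checked. Limma 3.58.1 in R 4.3.3 fitted label, B code and last number to the 8 arrays. There were 4 residual and 6.27 prior degrees of freedom, and p-values were adjusted (Benjamini-Hochberg) across 13796 genes or 168240 exon-level probe sets, with 0.05 as threshold. The steps were tested on simulated data. Differences are induced minus uninduced, or B_4 minus B_1. The number of arrays limits precision. Named with values were, per complex, the 2 largest rises and falls that passed and the largest B code difference, paralogs, core subunits, and from each list the 2 lowest p per direction. Exon-level probe set calls, other members and marker values are given in addition. Members and lists were chosen with earlier results of these data known. Alternatives covered the filter, normalisation, probe set choice, exon-level means, variance model, covariates, pairing and each array left out. The second probe set of a gene was added after seeing the data.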

Additional observations from a re-analysis of the deposited data

Results flagged for a closer look

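In 8 of 170 groups of 4 arrays, 1 per member and label, 1 array stood so far from the other 3 that its gap to the nearest, as a share of the group's range, passed Dixon's critical value for groups of 4. Chance gives such a gap in about 1 of 20 groups. Induced replicate 2 was the low array in 3 of them. ATP5F1C had 10.9 log2 there, against 11.2 in each of the other 3 induced arrays (ratio 0.908). NDUFA3 had 8.70 beside 8.95 to 8.98 (ratio 0.866) and UQCRQ 8.50 beside 8.75 to 8.78 (ratio 0.894). Induced replicate 4 was the high array for NDUFA11, at 8.71 beside 8.47 to 8.51 (ratio 0.855), and for NDUFS8, at 7.95 beside 7.87 to 7.88 (ratio 0.851). Uninduced replicate 1 was the low array for ATP5MC3, at 5.59 beside 5.86 to 5.89 (ratio 0.911), and for CYC1, at 9.92 beside 10.1 to 10.2 (ratio 0.874). Uninduced replicate 2 was the high array for ATP5MC2, at 9.74 beside 9.58 to 9.60 (ratio 0.875).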

How the results depend on the processing

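Over all alternatives run, 30 to 36 members were called higher and 10 to 15 lower, and no called member changed sign. Of the members called in the report, 27 of 34 that rose and 9 of 14 that fell kept the call under every other setting run, while 8 of 37 not called gained a call under 1 or more. Among the counts over members, exon-level probe sets and all genes, only that of exon-level probe sets called lower moved by over 1.5 times, at 29 to 40 with single arrays left out beside 45 with all, the lowest without uninduced replicate 2; fewer arrays were tested there. Averaging exon-level probe sets ended 7 calls (ATP5MC2, ATP5PD, COX7A2L, NDUFS3, NDUFV2, SDHD, UQCC4), quantile normalisation 3 (ATP5PO, COX5A, UQCC4) and averaging a gene's probe sets 1 (NDUFS4). Among these, the value moved by over 1.5 times for ATP5PD (0.15 beside 0.34), ATP5MC2 (-0.13 beside -0.23), ATP5PO (0.18 beside 0.27) and NDUFS4 (0.21 beside 0.37), and so did NDUFA5, still called, averaged over exon-level probe sets (-0.41 beside -0.61), and UQCC4 without induced replicate 2 (0.16 beside 0.24). The cause was not tested. The replicate block was run because replicate numbers recur in both labels. As a fixed block it gave 33 members higher and 13 lower, losing ATP5MC2 and UQCC4, with 7336 of all genes called against 7656, and as a random block 34 and 14. The same-numbered deviations correlated at 0.158, -0.0206, 0.114 and 0.0218, and not every array correlated best with its own number. Same-numbered arrays share a B code and a last number of unstated meaning, and were not taken as pairs.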
